A study of Mus musculus with 12 samples.

Results

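The chemokine and chemoattractant receptors examined here were the products of 8 genes, Ccr1, Ccr2, Ccr3, Cx3cr1, Cxcr4, Ackr3, Ccrl2 and Cmklr1, taken by symbol from the deposited expression table, whatever their values. All 8 were among the 38739 gene symbols listed, and 7 of them passed the filter on low values, together with 11880 other genes, so that 11887 genes were tested. Ackr3 was the receptor that did not pass.

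Chemokines are small secreted proteins that attract leukocytes. Their receptors span the plasma membrane and, in most cases, signal through inhibitory G proteins, so that a macrophage or monocyte that carries one can move up a gradient of its ligand. Ccr1 and Ccr2 bind inflammatory CC chemokines, Ccr3 binds the eotaxins, Cx3cr1 binds the membrane-tethered chemokine Cx3cl1, and Cxcr4 binds Cxcl12, which retains cells in the bone marrow. Cmklr1 is the signalling receptor of chemerin, the product of Rarres2. Ccrl2 and Ackr3 are atypical receptors, of which Ccrl2 holds chemerin at the cell surface and Ackr3 removes Cxcl12, both without the usual G protein signal.

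The receptors were measured by RNA sequencing of bone marrow-derived macrophages, grown from the marrow of wild-type (WT) mice or of mice lacking cyclic GMP-AMP synthase (cGAS), the cytosolic DNA sensor that activates STING. Cells of each genotype were left untreated (UT, media control) or were activated with lipopolysaccharide (LPS), a component of the outer membrane of Gram-negative bacteria, which gave 4 groups of 3 samples, named below by genotype and condition (WT UT or cGAS-/- LPS, for instance). GEO's labels give 100 ng/mL of LPS for 1 h, whereas the study's methods give a higher dose and a full day, so the time behind the values below is uncertain. The knockout was carried by the whole animal, on a background labelled C57B/L6, and the study describes the 3 samples of a group as technical replicates, so the p-values may measure only the spread between repeats. The labels' text on RNA extraction names neutrophils, while the samples are labelled as macrophages.

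The values, whose unit is not named, were read as TPM, which scale each transcript by its length and by the total of its library. Each symbol's value was taken as a mean over its transcripts, so levels of different receptors were not compared with each other. No read numbers were given and the depth is unknown. Replicate 3 of WT LPS stood apart: its column totalled 709802, against 447189 to 503156 for the other 11, and in it 1 ferritin pseudogene, Fth-ps3, took 31.7% of the total, against 6.24% to 17.7% elsewhere. Replicates correlated across genes with Pearson's r of 0.772 to 0.911 in WT LPS and of at least 0.960 in the other groups. Cgas itself was at 2.75 ± 0.122 TPM (SD, n = 3) in WT UT and at 0.161 ± 0.112 in cGAS-/- UT, and at 2.44 ± 1.10 and 0.0866 ± 0.0144 in the LPS groups, with every knockout sample below every WT sample (limma adjusted p = 0.00239 and 0.00508). The 9 listed of 10 macrophage markers summed to between 19234 and 35110 TPM in all samples, most of it Lyz2 (15701 to 33426). Other markers of the list moved with the groups, among them Mrc1, the mannose receptor, which was at 73.4 to 85.2 TPM in WT UT, 3.85 to 10.9 in WT LPS, 23.5 to 25.6 in cGAS-/- UT and 0.857 to 1.10 in cGAS-/- LPS. In bulk RNA, fewer cells with a transcript and less transcript per cell cannot be told apart.

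Of the 8 receptor genes, 5 lie on chromosome 9 of GRCm39. Ccr1 (chr9:123762161-123768734, minus strand), Ccr3 (chr9:123822009-123831726, plus strand) and Ccr2 (chr9:123901982-123913594, plus strand) belong to 1 chemokine receptor cluster, in which Ccr1l1 lies 8.545 kb from Ccr1 and 43.563 kb from Ccr3, and Ccr3 and Ccr2 are 70.255 kb apart. Cx3cr1 (chr9:119877749-119898945, minus strand) and Ccrl2 (chr9:110883554-110886591, minus strand) are on the same chromosome. Cxcr4 (chr1:128515936-128520044, minus strand) and Ackr3 (chr1:90131689-90144473, plus strand) are on chromosome 1, and Cmklr1 (chr5:113750358-113788509, minus strand) is on chromosome 5.

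RefSeq promoters (300 bases around a transcription start, from a table of build GRCm38.p6) were held for all 8 receptor genes and each was found once, by exact match, in GRCm39. A consensus of NF-κB, the transcription factor that Toll-like receptor signals activate, was searched on both strands and occurred in 8.46% of 32851 promoters. It was present for 3 of the 8 receptor genes, Ccrl2, Ccr1 and Ccr3. The stretches from 200 to 11 bases before the start are shown for these 3 genes with the NF-κB consensus in capitals, and for Cxcr4, which fell with LPS in both genotypes, with its TATAAA (found on both strands, overlapping) in capitals.
Ccrl2 (chr9:110886597-110886786, minus strand): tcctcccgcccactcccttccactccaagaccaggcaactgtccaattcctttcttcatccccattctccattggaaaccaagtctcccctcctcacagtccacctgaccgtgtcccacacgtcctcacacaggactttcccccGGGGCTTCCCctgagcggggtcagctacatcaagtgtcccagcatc
Ccr1 (chr9:123768740-123768929, minus strand): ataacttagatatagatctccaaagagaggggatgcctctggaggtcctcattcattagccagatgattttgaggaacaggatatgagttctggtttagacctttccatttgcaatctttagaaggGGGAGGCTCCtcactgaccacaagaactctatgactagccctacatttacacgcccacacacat
Ccr3 (chr9:123821808-123821997, plus strand): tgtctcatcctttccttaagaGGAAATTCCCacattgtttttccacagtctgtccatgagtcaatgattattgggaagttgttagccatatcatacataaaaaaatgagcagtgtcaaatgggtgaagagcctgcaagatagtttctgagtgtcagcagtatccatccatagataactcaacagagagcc
Cxcr4 (chr1:128520047-128520236, minus strand): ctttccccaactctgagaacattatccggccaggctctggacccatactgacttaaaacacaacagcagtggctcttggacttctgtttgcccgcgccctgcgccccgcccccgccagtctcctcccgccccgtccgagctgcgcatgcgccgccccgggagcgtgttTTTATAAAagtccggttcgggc

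The first base of the consensus was 56 bases before the start of Ccrl2, 74 before that of Ccr1 and 179 before that of Ccr3. For Ccrl2 this was the most upstream of its 3 RefSeq starts. TATAAA occurred in 13.6% of promoters and, apart from Cxcr4, in that of Ackr3. The other motifs searched on both strands were TGANTCA of AP-1 (7.81% of promoters, here in Ccr3), GAGGAA of PU.1 (28.3%, here in Ccr1, Cmklr1 and Ccr3, where it overlaps the NF-κB consensus), TTGCNNAA of C/EBP (10.8%, here in Ackr3) and GAAANNGAA of interferon response elements (8.56%, here in Ccr2). The promoter of Cx3cr1 held none of these letters. Such matches describe the sequence and were not tested as binding sites.

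**Figure D1:**
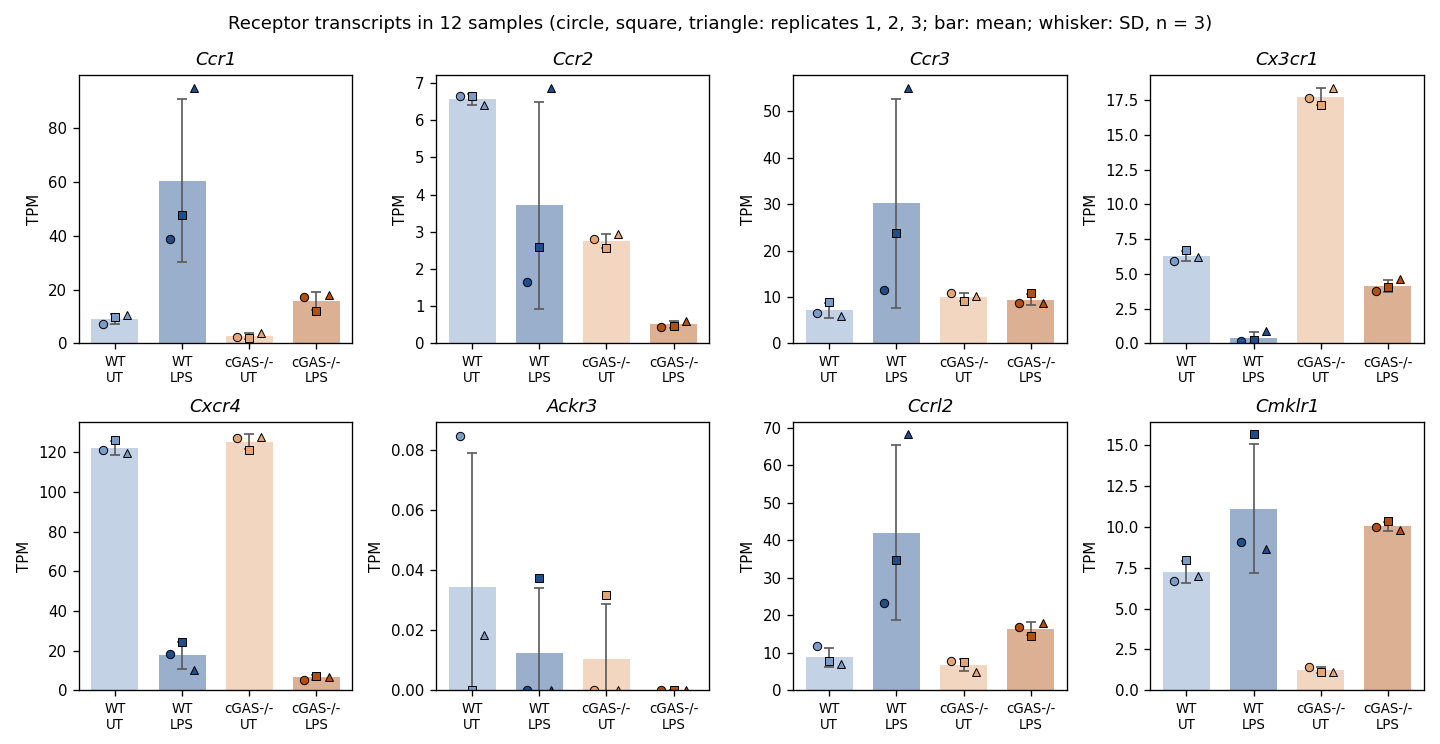
Transcript level of each receptor gene in TPM (vertical axis from 0, scale differing between panels) in the 4 groups, with replicates 1, 2 and 3 as circle, square and triangle, the mean as a bar and the SD as a whisker (n = 3). Cxcr4 stood at 119 to 128 TPM in all 6 UT samples and at 5.20 to 24.1 with LPS, Ccr1, Ccr3 and Ccrl2 were highest in replicate 3 of WT LPS, and Ackr3 did not exceed 0.0848 TPM.

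LPS moved the receptors in opposite directions. In WT macrophages, 3 of the 7 tested receptors rose (Ccr1, Ccrl2 and Ccr3) and 2 fell (Cxcr4 and Cx3cr1), at a limma adjusted p under 0.05 over all tested genes. Of all 11887 genes, 4.31% were higher and 23.3% were lower by the same rule, and 4.32% also passed a log2 fold change of 2 in either direction, as 4 of the receptors did (Ccr1, Ccrl2, Cxcr4 and Cx3cr1). In cGAS-/- macrophages, 2 of 7 rose (Ccr1 and Cmklr1) and 3 fell (Cxcr4, Cx3cr1 and Ccr2), against 4.76% and 9.06% of all genes, and 3 receptors (Ccr1, Cmklr1 and Cxcr4) passed both thresholds, against 3.5%. Fold changes are given on the log2(TPM + 1) scale, which understates the change of genes with low values.

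The median change of the 7 tested receptors with LPS was 0.52 in WT and -0.10 in cGAS-/- cells, beside -0.46 and -0.20 over all tested genes. The shift of all genes in WT came to -0.02 when samples were scaled by median ratios, and the share of calls that were higher went from 15.6% to 42.6% in WT cells and, in cGAS-/- cells, from 34.5% to 49.3%. For the genotype comparison with LPS that share went from 57.7% to 47.6% by the same scaling and to 60.0% by quantile normalization. In UT cells it went from 13.8% to 16.4% and 26.7% by these scalings, and for the difference of effects from 81.3% to 68.6% and 66.9%. With a common total it was 10.05% and 30.7% for LPS in WT and cGAS-/- cells. Between genotypes it was then 59.1% with LPS and 10.5% in UT cells, and for the difference of effects 84.0%. Relative to the median of all genes, the WT change was 2.98 for Ccr1, 2.50 for Ccrl2, 2.15 for Ccr3, -1.94 for Cx3cr1 and -2.35 for Cxcr4, so their directions did not turn on this shift. Ccr3 in cGAS-/- cells was the receptor whose LPS effect did, at -0.10 as deposited and 0.11 relative to the median.

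**Figure D2:**
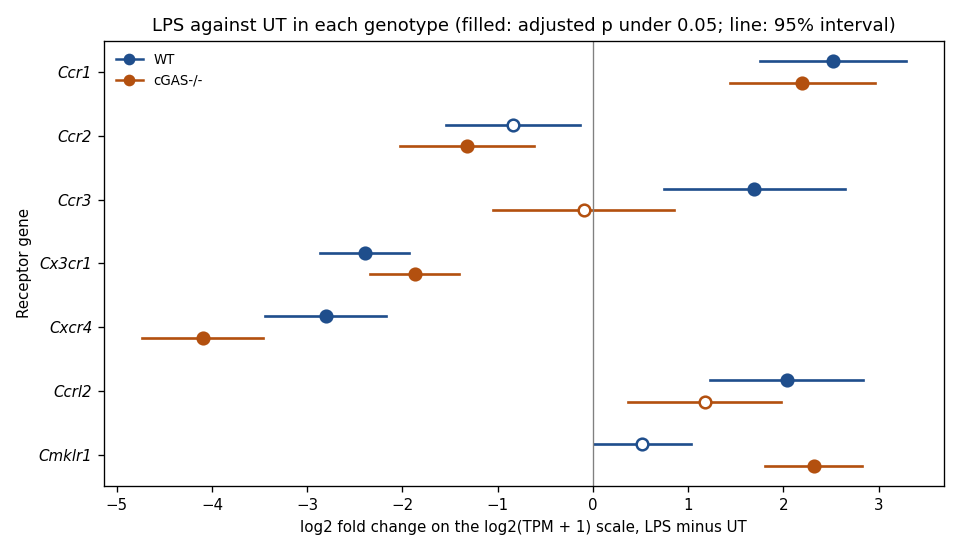
Change with LPS of the 7 tested receptors (horizontal axis, log2 fold change on the log2(TPM + 1) scale, LPS minus UT) in WT and cGAS-/- macrophages, with lines for 95% confidence intervals and filled points for limma adjusted p under 0.05. Ccr1 lies at 2.52 and 2.20 and Cxcr4 at -2.81 and -4.10, whereas Cmklr1 lies at 0.52 in WT and 2.32 in cGAS-/- cells.

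Between genotypes, fewer receptors passed the test. In UT cells, Cx3cr1 was higher and Cmklr1 lower in cGAS-/- than in WT macrophages, which is 1 of 7 in each direction beside 0.252% and 1.58% of all genes. With LPS, Cx3cr1 was again higher, and Ccr1, Ccr2 and Cxcr4 were lower in cGAS-/- cells, which is 1 and 3 of 7 beside 1.36% and 1% of all genes. None of the 7 receptors passed both thresholds in either condition (0.37% and 0.614% of all genes), while 2 of 7 in UT cells and 4 of 7 with LPS passed the adjusted p by limma. The numbers at an unadjusted limma p under 0.05 were 4 and 6, for which no share over all genes is given here. The median difference of the receptors was -0.31 in UT cells and -1.25 with LPS, beside -0.04 and 0.20 over all tested genes. The median with LPS was -0.76 without replicate 3 of WT LPS, beside 0.04.

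Whether LPS acted on a receptor to a different extent in cGAS-/- and WT cells was tested for each gene. It passed for Cmklr1 alone, 1 of 7, beside 0.9% of all genes, and without replicate 3 of WT LPS it passed for 3 receptors (Cmklr1, Cxcr4 and Cx3cr1), beside 4.56% of all genes in that fit. The 2 LPS effects of a receptor, and the 2 genotype effects, share samples with this difference and are given side by side below.

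**Figure D3:**
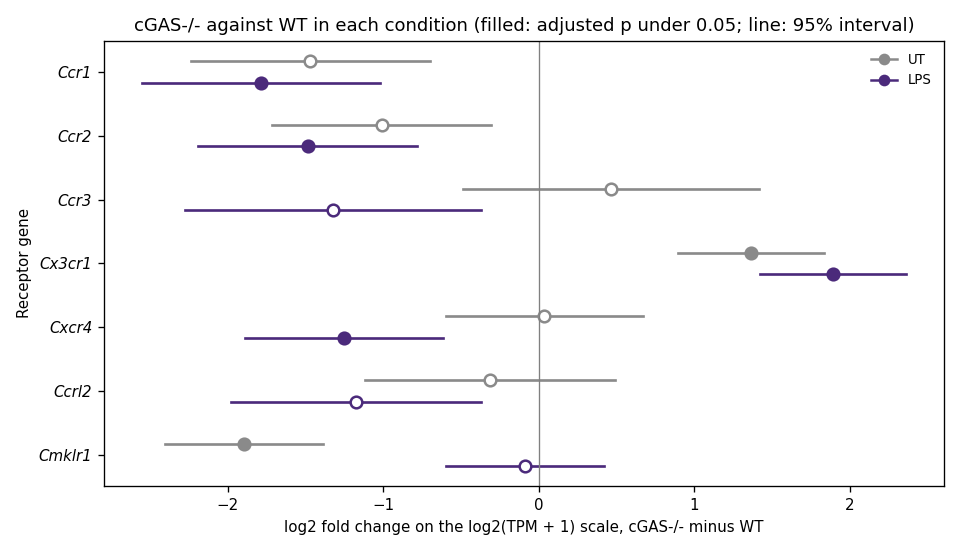
Difference between genotypes for the 7 tested receptors (horizontal axis, log2 fold change on the log2(TPM + 1) scale, cGAS-/- minus WT) in UT and LPS samples, with lines for 95% confidence intervals and filled points for limma adjusted p under 0.05. Cx3cr1 lies to the right in both conditions (1.36 and 1.89), Ccr1 to the left in both (-1.47 and -1.79), and Cmklr1 is far from 0 in UT samples only (-1.89 against -0.09).

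Ccr1, a receptor of Ccl3, Ccl5 and other inflammatory chemokines on macrophages, rose with LPS in both genotypes and was lower in cGAS-/- cells with LPS. It was at 7.10, 9.69 and 10.4 TPM in WT UT, 38.8, 47.7 and 95.1 in WT LPS, 2.30, 1.93 and 3.84 in cGAS-/- UT and 17.2, 12.1 and 18.1 in cGAS-/- LPS. No 2 of the 4 groups overlapped, and from low to high their order was cGAS-/- UT, WT UT, cGAS-/- LPS and WT LPS. The mean was 6.67-fold higher with LPS in WT (log2 fold change 2.52, standard error 0.348, limma adjusted p = 0.000463) and 5.87-fold higher in cGAS-/- cells (2.20, standard error 0.348, adjusted p = 0.00137). The LPS effects themselves differed by -0.32 (95% interval -1.40 to 0.76, adjusted p = 0.793). With LPS, the mean was 3.83-fold lower in cGAS-/- than in WT cells (-1.79, adjusted p = 0.0237). The corresponding UT difference, 3.37-fold, was -1.47 with an adjusted p of 0.0682, and it passed with rescaling to a common total (-1.54, adjusted p = 0.0232).

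Replicate 3 of WT LPS held the highest Ccr1 value of the series. Without it, the change with LPS in WT was 2.14 (limma adjusted p = 0.000163) and the genotype difference with LPS was -1.41 (adjusted p = 0.00824). That genotype difference lost its call when any 1 of the 3 cGAS-/- LPS samples was left out, with values of -1.85, -1.62 and -1.89 and adjusted p of 0.0931, 0.124 and 0.0756 without replicates 1, 2 and 3. It was also lost with sample weights (-1.44, adjusted p = 0.181), without a filter (adjusted p = 0.0517) and with only the samples compared (adjusted p = 0.332). Counts of calls over all genes fell when a cGAS-/- LPS sample was left out, from 281 to between 77 and 95.

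Ccr2, the receptor by which Ccl2 and Ccl7 draw monocytes out of the marrow and into tissue, was low with LPS in cGAS-/- cells. Its values were 6.65, 6.65 and 6.40 TPM in WT UT, 1.66, 2.59 and 6.88 in WT LPS, 2.80, 2.56 and 2.94 in cGAS-/- UT and 0.445, 0.474 and 0.608 in cGAS-/- LPS. All cGAS-/- LPS samples lay below the other 9, whereas WT LPS spread across both UT groups, with replicate 3 above every WT UT sample. In cGAS-/- cells the mean fell 5.43-fold with LPS (log2 fold change -1.32, standard error 0.320, limma adjusted p = 0.0181). In WT the change was -0.84 (95% interval -1.55 to -0.14, adjusted p = 0.0705), and without replicate 3 of WT LPS it was -1.29 (adjusted p = 0.000114). It was -0.14 with median-ratio scaling and -0.32 with quantile normalization, by which the fall in cGAS-/- cells was not called either (-1.12 and -1.09, adjusted p = 0.233 and 0.138). The difference between those effects was -0.48 (95% interval -1.47 to 0.52), and ranged from -1.19 to -0.03 over 22 alternatives, none of them called.

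Ccr2 was 7.29-fold lower in cGAS-/- than in WT cells with LPS (-1.49, limma adjusted p = 0.0384), and 4.17-fold lower without replicate 3 of WT LPS (-1.04, adjusted p = 0.00217). With median-ratio scaling that difference was -1.93 (adjusted p = 0.0713). In UT cells the groups did not overlap either, at 6.57 ± 0.144 and 2.77 ± 0.189 TPM, but the difference of -1.01 did not pass (adjusted p = 0.235). Both of its calls were borderline, each passing in 8 of 17 alternatives. The fall in cGAS-/- cells was lost when any 1 of the 6 cGAS-/- samples was left out (-1.29 to -1.37, adjusted p 0.0526 to 0.0689), and the genotype difference with LPS when any 1 of the 3 cGAS-/- LPS samples was (-1.46, -1.47 and -1.53 without replicates 1, 2 and 3, adjusted p 0.154, 0.146 and 0.13). The 6 listed of 7 monocyte markers moved in part with Ccr2, summing to 11.3 to 13.9 TPM in WT UT, 15.1 to 167 in WT LPS, 3.30 to 3.58 in cGAS-/- UT and 9.01 to 9.84 in cGAS-/- LPS. In WT LPS most of that sum was Plac8 (13.4 to 152 TPM). None of the 6 was at 0 in all samples, and their part in the result was not tested.

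Ccr3, the eotaxin receptor of eosinophils, rose with LPS in WT cells. It was at 6.60, 8.87 and 5.86 TPM in WT UT and at 11.5, 23.9 and 55.2 in WT LPS, which did not overlap. In cGAS-/- cells it was at 10.9, 9.23 and 10.2 TPM in UT and 8.80, 10.8 and 8.63 with LPS, which did. WT LPS was thus the highest group, and the other 3 overlapped their neighbours in the order of means except that all cGAS-/- UT samples were above all WT UT samples. In WT, Ccr3 changed by 1.69 (limma adjusted p = 0.0154, standard error 0.433), or by 1.14 if replicate 3 of WT LPS was left out (adjusted p = 0.00928). It missed the threshold without replicate 1 of WT UT (1.66, adjusted p = 0.0519) and without replicate 3 of WT UT (1.58, adjusted p = 0.0573), with sample weights (1.05, adjusted p = 0.0842) and when only the samples compared were fitted (1.69, adjusted p = 0.136).

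In cGAS-/- cells the change of Ccr3 was -0.10 (95% interval -1.05 to 0.86, limma adjusted p = 0.936), and 0.17 with median-ratio scaling. The difference between the LPS effects, -1.79 (95% interval -3.13 to -0.44), had an adjusted p of 0.29, and only without replicate 1 of WT LPS did it pass (-2.32, adjusted p = 0.0432), while it was -1.23 without replicate 3 (adjusted p = 0.0958). Between genotypes, Ccr3 differed by -1.32 with LPS (adjusted p = 0.153), or -0.76 without replicate 3 of WT LPS (adjusted p = 0.119), and by 0.47 in UT cells (adjusted p = 1). The eosinophil genes Epx and Prg3 were at 0 in all 12 samples and the 5 eosinophil markers together did not exceed 0.841 TPM in any sample.

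Cx3cr1, the receptor of the tethered chemokine Cx3cl1 and a marker of patrolling monocytes and many tissue macrophages, fell with LPS in both genotypes and was higher in cGAS-/- cells in both conditions. Its values were 5.93, 6.69 and 6.23 TPM in WT UT, 0.157, 0.218 and 0.872 in WT LPS, 17.7, 17.2 and 18.4 in cGAS-/- UT and 3.75, 4.05 and 4.61 in cGAS-/- LPS. The 4 groups did not overlap, in the order WT LPS, cGAS-/- LPS, WT UT and cGAS-/- UT. LPS lowered the mean 15.1-fold in WT (log2 fold change -2.40, standard error 0.213, limma adjusted p = 2.42e-05) and 4.29-fold in cGAS-/- cells (-1.87, standard error 0.213, adjusted p = 0.000144). The effects differed by 0.53 (95% interval -0.14 to 1.19, adjusted p = 0.568), and without replicate 3 of WT LPS by 0.75 (adjusted p = 0.0263). Over 22 alternatives the difference ranged from -0.26, with a pseudocount of 5, to 1.81. It passed only without that replicate.

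Compared with WT, Cx3cr1 was 2.82-fold higher in cGAS-/- UT cells (1.36, standard error 0.213, limma adjusted p = 0.00645) and 9.96-fold higher with LPS (1.89, adjusted p = 0.00112). The second of these was 2.11 without replicate 3 of WT LPS (adjusted p = 5.9e-06). As ratios of mean TPM, without that replicate the WT fall with LPS was 33.5-fold and the genotype difference 22.1-fold. As a rank among tested genes, Cx3cr1 was at the 64.9th to 67.7th percentile in WT UT and at the 84.0th to 84.7th in cGAS-/- UT. In WT LPS it stood at the 16.0th, 9.3rd and 46.4th percentile in replicates 1, 2 and 3, against the 59.6th to 64.2nd in cGAS-/- LPS. No sample left out ended any of these 4 calls, but the UT difference missed the threshold with a pseudocount of 0.1 (1.48, adjusted p = 0.222) and with median-ratio scaling (1.36, adjusted p = 0.0656), and the difference with LPS when only the samples compared were fitted (1.89, adjusted p = 0.156).

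Cxcr4, the receptor of Cxcl12, fell with LPS in both genotypes. It was at 121, 126 and 119 TPM in WT UT and 127, 121 and 128 in cGAS-/- UT, which overlapped. With LPS it was at 18.3, 24.1 and 10.2 in WT and at 5.20, 7.22 and 6.85 in cGAS-/- cells, so that all 6 LPS samples lay far below the UT samples and the 2 LPS groups did not overlap. The mean fell 6.97-fold in WT (log2 fold change -2.81, standard error 0.289, limma adjusted p = 6.48e-05) and 19.5-fold in cGAS-/- cells (-4.10, standard error 0.289, adjusted p = 5.33e-06). The difference between the effects was -1.29 (95% interval -2.19 to -0.39, adjusted p = 0.249). It passed without replicate 3 of WT LPS (-1.62, adjusted p = 0.00185) and with median-ratio scaling (-1.79, adjusted p = 0.00348).

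In UT cells the genotypes differed for Cxcr4 by 0.04 (95% interval -0.60 to 0.67, limma adjusted p = 1). With LPS it was 2.73-fold lower in cGAS-/- cells (-1.25, standard error 0.289, adjusted p = 0.0497). That call lay at the threshold: it was lost without replicate 1 of WT LPS (-1.19, adjusted p = 0.0827) and without replicates 1, 2 and 3 of cGAS-/- LPS (-1.13, -1.33 and -1.30, adjusted p = 0.239, 0.148 and 0.167). Without replicate 3 of WT LPS the difference was -1.58 (adjusted p = 0.000186), and over 17 alternatives it passed in 7. Cxcr4 stood at the 96.6th to 97.0th percentile of tested genes in the 6 UT samples, at the 84.7th to 87.2nd in WT LPS and at the 66.6th to 72.7th in cGAS-/- LPS.

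Ackr3, the scavenger of Cxcl12, was at or near 0 throughout. Its values were 0.0848, 0 and 0.0185 TPM in WT UT, 0, 0.0375 and 0 in WT LPS, 0, 0.0317 and 0 in cGAS-/- UT and 0 in all cGAS-/- LPS samples. It was above 0 in 4 of 12 samples, the groups overlapped, and no test was made.

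Ccrl2, the atypical receptor that presents chemerin to Cmklr1 on other cells, was called higher with LPS in WT cells and lay near the threshold in cGAS-/- cells. It was at 11.7, 7.69 and 6.87 TPM in WT UT, 23.4, 34.6 and 68.3 in WT LPS, 7.92, 7.53 and 4.97 in cGAS-/- UT and 16.8, 14.6 and 17.9 in cGAS-/- LPS. The UT groups overlapped, both LPS groups lay above them, and every WT LPS sample exceeded every cGAS-/- LPS sample. In WT the mean was 4.81-fold higher with LPS (log2 fold change 2.04, standard error 0.365, limma adjusted p = 0.00234), and the change was 1.63 without replicate 3 (adjusted p = 0.000999). It missed the threshold when only the samples compared were fitted (adjusted p = 0.0571). In cGAS-/- cells it was 2.41-fold higher, a change of 1.17 (95% interval 0.37 to 1.98) whose adjusted p of 0.0564 missed the threshold. It passed in 6 of 17 alternatives, among them a common total (1.10, adjusted p = 0.0443), quantile normalization (1.31, adjusted p = 0.0433) and sample weights (1.12, adjusted p = 0.00026).

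The LPS effects on Ccrl2 differed by -0.86 (95% interval -2.00 to 0.27, limma adjusted p = 0.586). Between genotypes it differed by -0.31 in UT cells (adjusted p = 1) and by -1.18 with LPS (95% interval -1.98 to -0.37, adjusted p = 0.136). The difference with LPS passed without replicate 1 of WT LPS (-1.52, adjusted p = 0.0461) and without replicate 2 of WT LPS (-1.24, adjusted p = 0.049), and was -0.76 without replicate 3 of WT LPS (adjusted p = 0.107), where the LPS effects differed by -0.45.

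Cmklr1, the chemerin receptor of macrophages and dendritic cells, differed between the genotypes in UT cells, while its LPS groups overlapped. It was at 6.71, 7.99 and 6.99 TPM in WT UT and at 1.42, 1.13 and 1.09 in cGAS-/- UT. With LPS it was at 9.10, 15.7 and 8.63 in WT and at 9.97, 10.4 and 9.82 in cGAS-/- cells. The UT groups were far apart, and the LPS groups overlapped, with replicate 2 of WT LPS above all others. In UT cells the mean was 5.95-fold lower in cGAS-/- than in WT macrophages (log2 fold change -1.89, standard error 0.231, limma adjusted p = 0.00133), and with LPS the difference was -0.09 (95% interval -0.60 to 0.42, adjusted p = 0.843).

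LPS raised Cmklr1 8.27-fold in cGAS-/- cells (2.32, standard error 0.231, limma adjusted p = 5.92e-05). In WT the groups did not overlap either, and the change of 0.52 (95% interval 0.01 to 1.03) had an adjusted p of 0.114, whereas it passed with median-ratio scaling (1.25, adjusted p = 0.00101) and with quantile normalization (0.98, adjusted p = 0.000863). The cGAS-/- effect of LPS exceeded the WT effect by 1.80 (standard error 0.327, adjusted p = 0.0319). Without replicate 3 of WT LPS, the WT change was 0.66 (adjusted p = 0.024) and the difference of effects 1.66 (adjusted p = 0.0061). The call on the difference was lost when any 1 of the 9 samples outside WT LPS was left out, with values between 1.74 and 1.87 and adjusted p between 0.085 and 0.119. Median-ratio scaling also ended it (1.23, adjusted p = 0.0596), as did a common total (1.99, adjusted p = 0.059) and a pseudocount of 5 (0.90, adjusted p = 0.0684).

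Cmklr1 ranked at the 67.7th to 71.3rd percentile of tested genes in WT UT and at the 28.5th to 34.1st in cGAS-/- UT. With LPS it ranked at the 79.1st to 83.1st percentile in WT and the 77.8th to 78.6th in cGAS-/- cells. Among markers of other cells, the 8 B cell markers moved with genotype in UT cells, summing to 110 to 135 TPM in WT and 20.4 to 29.3 in cGAS-/- samples, most of it from Igkc and Ighm. With LPS they summed to 30.9 to 46.0 TPM in WT and 3.35 to 9.32 in cGAS-/- samples. The 6 stromal markers summed to 7.14 to 8.30 TPM in WT UT, 2.10 to 3.86 in cGAS-/- UT, 3.29 to 5.26 in WT LPS and 1.19 to 1.67 in cGAS-/- LPS. The 10 neutrophil markers summed to 173 to 243 TPM in WT UT and 85.8 to 157 in cGAS-/- UT, and to 92.0 to 403 in WT LPS and 98.1 to 125 in cGAS-/- LPS, which overlapped. The part of these cells in the receptor differences between genotypes was not tested.

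Of 19 genes for ligands of the 8 receptors, 12 were tested. LPS raised 8 of them in WT and 6 in cGAS-/- cells, and lowered none in WT and 1 in cGAS-/- cells, with medians of 3.39 and 1.97, beside 4.31% and 4.76% of all genes called higher and 23.3% and 9.06% called lower. Without replicate 3 of WT LPS, 10 were raised and 1 lowered in WT cells with a median of 4.15, beside 8.26% and 26.5% of all genes in that fit. Cxcl11 and Ccl12 (at most 0.0814 and 2.82 TPM in UT samples) passed the filter on low values only with their LPS samples. The filter thus favoured their rises. Ccl5, a ligand of Ccr1 and Ccr3, changed most in both genotypes (8.36 and 8.24, limma adjusted p = 8.02e-07 and 4.69e-07). Ligands of Ccr2 changed by 4.06 and 5.56 (Ccl2), 4.51 and 5.39 (Ccl7) and 6.16 and 3.78 (Ccl12) in WT and cGAS-/- cells. The WT value of Ccl7 was 5.69 without replicate 3 of WT LPS, which stood at 95.4 TPM against 1219 and 1002 in the other two, and those of Ccl2 and Ccl12 were then 4.68 and 6.71. Ccl8 rose by 4.21 in WT cells (4.99 without that replicate), to between 70.5 and 528 TPM, and was at 4.66 to 7.16 TPM in cGAS-/- LPS, where its change was 0.35 (limma adjusted p = 0.782). The difference between its LPS effects was -3.86 and was not called (limma adjusted p = 0.0508). Without that replicate it was -4.65 (adjusted p = 0.000223).

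Between genotypes, no ligand passed as higher in cGAS-/- cells with all samples, while without replicate 3 of WT LPS 1 of 12 was higher (Ccl3, 0.75, limma adjusted p = 0.00169) and 7 were lower with LPS, beside 3.84% and 4.44% of all genes in that fit. Ccl2 (-3.02) and Ccl6 (-2.04), a ligand of Ccr1, were lower in UT cells, and Ccl8 (-4.90), Ccl12 (-3.26), Ccl6 (-2.48) and Cxcl11 (-2.08), a ligand of Ackr3, were lower with LPS (limma adjusted p between 0.00118 and 0.0249). Without replicate 3 of WT LPS, the 4 values with LPS were -5.68, -3.81, -2.86 and -2.71, in the same order. The 2 and 4 of 12 called lower with all samples stand beside 1.58% and 1% of all genes called lower, and the ligand medians were -0.57 in UT cells and -1.11 with LPS (-1.62 without that replicate). The chemokine ligands of Cx3cr1 and Cxcr4 and the ligand of Cmklr1 were low, since Cx3cl1 did not exceed 0.442 TPM, Cxcl12 0.998 and Rarres2 0.161 in any sample, and none of these 3 passed the filter. Mif, a cytokine that also binds Cxcr4, was at 135 to 176 TPM in the 6 UT samples, 20.1 to 582 in WT LPS and 392 to 423 in cGAS-/- LPS, and was not called in any comparison with all samples. Its 20.1 TPM was in replicate 3 of WT LPS, without which its change with LPS in WT was 1.19 (limma adjusted p = 0.00568).

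**Figure D4:**
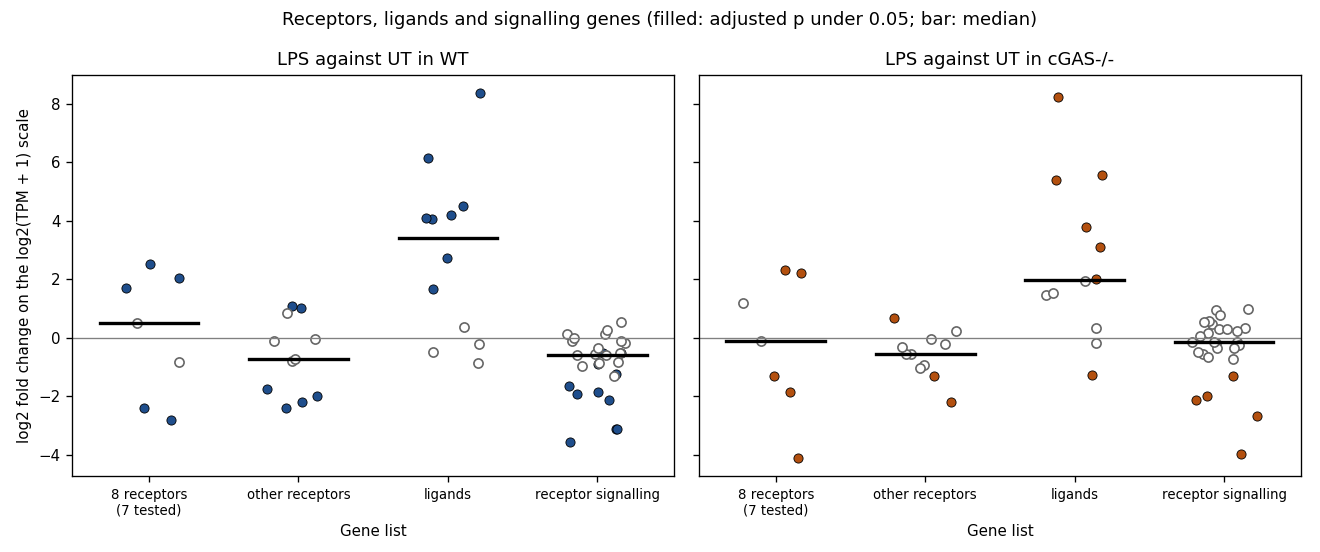
Change with LPS (vertical axis, log2 fold change on the log2(TPM + 1) scale) of the 7 tested receptors, 11 other chemoattractant receptors, 12 ligands and 28 receptor signalling genes in WT (left) and cGAS-/- macrophages (right), each point a gene, filled at a limma adjusted p under 0.05, with the list median as a bar. The ligand medians lie at 3.39 and 1.97, and no signalling gene is called higher in either genotype.

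Among 25 other chemoattractant receptors, 23 were listed and 11 tested, of which LPS raised 2 and lowered 4 in WT and raised 1 and lowered 2 in cGAS-/- cells, with medians of -0.73 and -0.57. Without replicate 3 of WT LPS, 1 was raised and 4 were lowered in WT, with a median of -0.21, beside 8.26% and 26.5% of all genes in that fit. With all samples the shares over all genes were 4.31% higher and 23.3% lower in WT, and 4.76% and 9.06% in cGAS-/- cells. S1pr1, a receptor by which leukocytes leave tissue, fell in both genotypes (-2.39 and -2.18, limma adjusted p = 0.0013 and 0.00296), as did C5ar2, a receptor of complement C5a (-1.75 and -1.31). C5ar1 (-2.21) and Ptafr (-1.98) were called lower in WT cells, and without replicate 3 of WT LPS their changes were -1.26 and -1.40 (adjusted p = 6.58e-05 and 0.000467). C5ar1 was at 67.8, 95.4 and 10.3 TPM in WT LPS and at 92.6 to 96.6 in cGAS-/- LPS, where its change was -0.57 (adjusted p = 0.644). Xcr1 rose by 1.08 and 0.68, from at most 0.173 TPM to between 0.419 and 2.14. Ccr1l1, the neighbour of Ccr1, rose by 1.01 in WT cells, and by 0.76 without that replicate (adjusted p = 0.0502). Neither Xcr1 nor Ccr1l1 (at most 0.503 TPM in UT samples) would have passed the filter on low values without its LPS samples. The filter thus favoured these rises. By limma none of the 11 passed the genotype comparisons at the adjusted threshold of 0.05, and 1 in UT and 2 with LPS did at an unadjusted p under 0.05. Over all genes, 0.252% were called higher and 1.58% lower in UT cells and 1.36% and 1% with LPS, shares at which 0 of 11 says nothing particular about these receptors.

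Among 32 genes that carry or end the receptor signal, 28 were tested, and LPS lowered 11 in WT and 5 in cGAS-/- cells and raised none (medians -0.58 and -0.16). Of all genes, 23.3% were called lower in WT and 9.06% in cGAS-/- cells. In WT cells 11 were lowered and 2 raised without replicate 3 of WT LPS (26.5% and 8.26% of all genes), with a median of -0.40. Among those that fell in both genotypes were 4 regulators of G protein signalling, a family that switches off G proteins. Rgs2 changed by -3.58 and -3.96, Rgs1 by -2.14 and -2.68, Rgs18 by -3.11 and -2.13 and Rgs10 by -3.13 and -1.98 (limma adjusted p between 2.72e-05 and 0.0279). Without that replicate the WT changes of Rgs18 and Rgs10 were -2.32 and -2.34. With LPS, Pik3cg (1.85) and Gng10 (1.30) were higher in cGAS-/- than in WT cells (1.36% of all genes were), and by limma 0 of the 28 differed in UT cells, 2 at an unadjusted p under 0.05. Without replicate 3 of WT LPS the first 2 values were 1.41 and 1.00, and Rgs1 was lower (-0.70, limma adjusted p = 0.0128). In that fit 3.84% of all genes were higher and 4.44% lower, and the list median with LPS went from 0.42 to 0.12.

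The genes whose pattern over the 12 samples was most like that of a receptor were sought among 8023 protein-coding tested genes by Pearson's r of log2(TPM + 1). The samples share 4 conditions, so these values describe likeness of pattern only. Cxcr4 was most like Cd5l (0.993), Enpp1 (0.988) and Igf1r (0.987), and Ccr2 was most like Cd59a (0.986), Tpm1 (0.968) and Gramd1b (0.964). For Ccr1 the nearest were Il1rn (0.975), Pml (0.965) and Parp3 (0.956), for Ccrl2 Sp140 (0.972), Il15ra (0.969) and Rnf135 (0.969), and for Ccr3 Phyh (0.958), Necap1 (0.943) and Frmd4a (0.942). For Cx3cr1 they were Plxdc2 (0.973), Nudt14 (0.955) and Rpsa (0.951), and for Cmklr1 Clec4a1 (0.979), Ikbke (0.931) and Cd55 (0.930). No receptor of the 8 was among the 3 genes nearest to another.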

How the data were processed

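RNA-seq values of 12 samples, 3 per group, were used as deposited. Per the labels and the study's methods, the authors used fastp to trim reads, STAR with GRCm39 to map them and kallisto to quantify transcripts, and tested groups in edgeR and limma. The versions of fastp, STAR and kallisto are not given in the sources used here. The file does not name its unit. The deposited values were read as TPM, a symbol's value being the mean over its transcripts, and without read counts the depth and the counting error are unknown. No column of the authors' own comparisons was used.

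Each column was matched to its sample by name and grouped by GEO's labels. Genes with at least 1 TPM in at least 3 of 12 samples, after rescaling to a common total for this filter only, were kept (11887 of 38739). Log2(TPM + 1) values were fitted with limma 3.58.1 in R 4.3.3, with 1 mean per group over all 12 samples and trended moderated variances, after the script was tested on simulated data. P-values are two-sided and were adjusted by Benjamini-Hochberg over all tested genes, and a gene was called at an adjusted p under 0.05. Alternatives changed the pseudocount (0.1, 5), the filter (none, 5 TPM), the scaling (common total, median ratios, quantiles), the samples fitted, sample weights, the variance trend and the replicate block, and left out each sample in turn. Same-numbered samples did not deviate together (correlations of deviations from -0.03 to 0.04 over 18 pairs), so replicate numbers were not taken as pairs. No 2 samples of a group held identical values in more than 8.38% of genes.

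All 8 receptors are named, with at most 4 called genes per list and comparison (largest absolute change), the 3 genes most like each receptor and Cgas. Ccl2 in WT cells, Ccl3, Ccr1l1, Xcr1 in WT cells and the ligands and marker genes given by level were named in addition, after their values were seen. The receptors, lists and tests were chosen with earlier results of these data known. Promoters came from RefSeq. Some results of the lists and of a search for shared sequence are not reported here.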

Additional observations from a re-analysis of the deposited data

Results flagged for a closer look

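The LPS effect on Cmklr1 differed between the genotypes by a test of the difference itself. The change with LPS was 0.52 in WT and 2.32 in cGAS-/- macrophages (n = 3 samples per group), a difference of 1.80 on the log2(TPM + 1) scale (standard error 0.327, limma adjusted p = 0.0319). All 3 cGAS-/- LPS samples lay above all 3 cGAS-/- UT samples, and all 3 WT LPS samples above all 3 WT UT samples. Over 22 alternatives the difference ranged from 0.90 to 2.39, with an adjusted p from 0.00123 to 0.119, and it passed the threshold in 9 of them. Without replicate 3 of WT LPS it was 1.66 (adjusted p = 0.0061). The part of cell composition in it was not tested.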

How the results depend on the processing

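Of 630 values of single receptors under the alternatives, 540 kept their direction and side of the threshold, 55 lost and 27 gained a call in the same direction, and 8 changed sign, none of them called. Ccr1, Cx3cr1 and Cxcr4 with LPS in both genotypes, Cmklr1 with LPS in cGAS-/- cells and Cmklr1 between genotypes in UT cells were called in all 17 alternatives. The values that changed sign were Ccr3 with LPS in cGAS-/- cells (0.17 with median ratios, 0.059 with quantiles), Cxcr4 between genotypes in UT cells (-0.039 with a common total), Cmklr1 between genotypes with LPS (0.024 with a common total, and -0.23 to 0.16 leaving out 1 sample), and the difference of LPS effects for Ccr1 (0.12 with sample weights, and -0.58 to 0.057 leaving out 1 sample) and Cx3cr1 (-0.26 with a pseudocount of 5).

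The number of receptors called with LPS in WT was 5, and 3 when only the samples compared were fitted, 6 under each of 3 scalings and 4 to 7 leaving out 1 sample, with 7 without replicate 3 of WT LPS (34.7% of all genes were then called). In cGAS-/- cells it was 5, with a range of 4 to 6. Between genotypes in UT cells it was 2, falling to 1 with a pseudocount of 0.1 or median ratios, where Cx3cr1 was lost, and rising to 4 with only the samples compared or sample weights. Calls over all 11887 genes there numbered 218, and under these settings 92, 213, 1241 and 1369, in the same order. Between genotypes with LPS the number of receptors was 4, against 2 with a pseudocount of 5, 1 without a filter, 0 by limma with only the samples compared (5 at an unadjusted p under 0.05) and 1 to 5 leaving out 1 sample. For the difference of effects it was 1, against 0 by limma with a pseudocount of 5 or a common total (3 and 2 at an unadjusted p under 0.05), 2 with quantiles or sample weights, 1 with median ratios (Cxcr4 in place of Cmklr1) and 0 to 3 leaving out 1 sample. With the replicate block the count was 2 between genotypes with LPS, where Ccr2 and Cxcr4 were lost, and 0 by limma for the difference of effects (3 at an unadjusted p under 0.05), where Cmklr1 had an adjusted p of 0.0745, and in UT cells Ccr1 was gained (adjusted p = 0.0435). The causes were not tested. Calls over all genes between genotypes with LPS numbered 281, but 5 with only the samples compared and 3312 without replicate 2 of WT LPS. With LPS, calls over all genes ranged from 716 to 5785 in WT cells (3286 in the main fit) and from 1020 to 5746 in cGAS-/- cells (1643). For the difference of effects they ranged from 32 to 1496 (107). Called ligands ranged from 6 to 11 with LPS in WT cells and, in cGAS-/- cells, from 6 to 10, and called signalling genes from 5 to 20 and from 3 to 22. Between genotypes, called ligands ranged from 2 to 7 in UT cells and from 0 to 8 with LPS, called signalling genes from 0 to 7 and from 0 to 13, and called other receptors from 0 to 3 in both. With LPS, between 2 and 8 other receptors were called in WT and, in cGAS-/- cells, between 2 and 7. Unknown depth limits what can be said of receptors near 0, such as Ackr3.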
